A study of Mus musculus with 22 samples.

Results

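The genes described here are 10 of the 29367 genes in the deposited count table, chosen by symbol because they mark pigment cells and the retinal pigment epithelium (RPE). Of these, 6 are pigment genes (Dct, Tyr, Tyrp1, Pmel, Mlana and Mitf) and 4 are genes of the visual cycle and the RPE (Rpe65, Rlbp1, Rgr and Best1). They were compared between the unmyelinated optic nerve head (ONH) and the myelinated optic nerve proper (ONP) of mice in which microbeads had been injected into one eye to raise the intraocular pressure. The mRNA was captured on HA-tagged ribosomes and sequenced as bulk RNA. There were 7 libraries per region at 30 days after injection and 4 per region at 7 days, 22 in all.

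All mice were a cross of ribotag mice (B6J.129(Cg)-Rpl22tm1.1Psam/SjJ) with Tg (GFAP-Cre) 73.12Mvs/J mice on B6.Cg, were recorded as WT, and were 3 to 4 months old. In the cross, Cre under the GFAP promoter exchanges an exon of the ribosomal protein gene Rpl22 for an HA-tagged one, so that the tag marks cells with a history of GFAP promoter activity, of which astrocytes are the intended ones. Each library held dissected nerve from 2 males and 2 females, 4 mice pooled, and the ONH and the ONP were taken from the same mice. Every group had received microbeads, so all differences below lie between regions or between 7 and 30 days, and none is a difference from uninjured nerve. The 7-day libraries are named by their number in the count table, which could be tied to a group but not to a single sample label.

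Pigment cells make melanin inside melanosomes. Tyrosinase, encoded by Tyr, starts the synthesis, Tyrp1 and Dct encode related enzymes of later steps, Pmel forms the fibrils on which the pigment is laid down, Mlana is a melanosome membrane protein, and Mitf is the transcription factor that drives many of these genes. In the eye, melanin is made by neural crest melanocytes of the choroid, ciliary body and iris and by the RPE, the single cell layer behind the photoreceptors. The RPE also runs the visual cycle, in which Rpe65 re-forms the visual chromophore, Rlbp1 encodes a retinaldehyde carrier and Rgr an opsin of the same cycle, while Best1 encodes a chloride channel of the RPE membrane. Rlbp1 and Rgr are also known from Müller glia, the radial glia of the retina. An astrocyte is not known as a source of melanin or of Rpe65.

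The promoter sequences below are shown because some of these genes varied together across the ONH libraries. Among them were Tyr with Tyrp1, Dct with Pmel and Mlana, and Rpe65 with Rgr and Rlbp1. Dct did not pass with Tyr or Tyrp1 (permutation test of r, adjusted p = 0.274 and 0.0688). RefSeq entries on GRCm38.p6 were matched for 8 of the 10 genes. Pmel and Mlana were not among them. The 250 bases before each start were searched on both strands for TCATGTG, the core of the M-box that Mitf binds, and for TAATCC, the site of the OTX homeodomain family. The M-box core, which contains the shorter E-box CATGTG, was found before Dct, Tyr and Tyrp1, and in 3.25% of the 32851 promoters in the table. The E-box alone was found before Rpe65 and Rlbp1 as well, and in 12.3% of all promoters. The stretches below read 5′ to 3′ on the strand of the gene, with the motif or its reverse complement in capitals.
Dct, chr14:118052366-118052422, minus strand: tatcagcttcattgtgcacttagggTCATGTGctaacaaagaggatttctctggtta
Tyr, chr7:87493513-87493559, minus strand: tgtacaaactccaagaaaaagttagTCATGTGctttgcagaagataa
Tyrp1, chr4:80834141-80834197, plus strand: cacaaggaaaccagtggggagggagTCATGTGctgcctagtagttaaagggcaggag
Rpe65, chr3:159599114-159599169, plus strand: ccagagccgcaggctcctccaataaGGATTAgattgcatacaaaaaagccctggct
Rgr, chr14:37049151-37049206, minus strand: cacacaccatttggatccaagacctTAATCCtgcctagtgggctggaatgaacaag
The motif began 151 bases before the start of Dct, which held a further M-box core 232 bases before it, 22 bases before that of Tyr and 47 bases before that of Tyrp1. The OTX motif stood 42 bases before Rpe65 and 167 bases before Rgr. It was also found before Dct, Best1 and one of the 3 Mitf starts, but not before Rlbp1, and in 6.25% of all promoters. A match describes the letters only, and binding was not measured.

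Total counts ranged from 16292489 to 33307092 per library. Levels are given as CPM, counts scaled to a common library total after TMM normalization, and 3 counts correspond to 0.0897 to 0.191 CPM, depending on the library. This limit covers counting error only. The astrocyte gene Gfap averaged 12890 CPM in the ONH (SD 2876) and 18170 CPM in the ONP (SD 4208) in the 7 libraries per region at 30 days. The marker Slc1a2 averaged 122 CPM in the ONH (SD 48.1) and 209 CPM in the ONP (SD 77.1) over the same libraries. The 10 astrocyte markers summed to 19000 to 30700 CPM in the ONH and 15800 to 35000 CPM in the ONP at 30 days. By edgeR 2 were higher in the ONH, 3 were lower and 5 did not pass. Over all genes 21.8% were called higher and 20.0% lower. Markers of other cells were present too and differed between regions. The summed level of 11 photoreceptor markers was 93.8 to 1530 CPM in the ONH against 5.40 to 29.8 CPM in the ONP at 30 days, and 103 to 3290 against 11 to 81.9 CPM at 7 days. Of those tested, 10 of 10 photoreceptor markers were higher in the ONH at 30 days by edgeR and 8 of 9 at 7 days. Of all genes, 21.8% and 6.34% were called higher at these times. The 8 oligodendrocyte markers summed to 25100 to 82200 CPM in the ONP and 13300 to 40600 CPM in the ONH at 30 days. At 7 days they summed to 80300 to 105000 CPM in the ONP, where the astrocyte markers summed to 16800 to 24100 CPM. The part of such cells in the values of the pigment and RPE genes was not tested. In bulk RNA, more cells of a type and more RNA per cell cannot be told apart.

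The first question was whether the levels of the 10 genes differed between the ONH and the ONP. At 30 days, 8 of the 10 were higher in the ONH by edgeR's quasi-likelihood test at an adjusted p under 0.05, against 21.8% of the 15133 genes tested that were called in that direction. At 7 days, the same 8 of 10 were higher, against 6.34% of 14752 genes. The 8 were Dct, Tyr, Tyrp1, Pmel, Mlana, Rpe65, Rlbp1 and Rgr, and Mitf and Best1 did not pass the threshold at either time. Tyr, Tyrp1 and Mlana had too few ONP counts to be tested in the ONP alone. They entered the comparison through their ONH libraries and so could be called only as higher. At 30 days Rpe65 did so too, with 3 of its 7 ONP libraries over 3 counts. The 10 genes were chosen with earlier results of these data known. With at least 10 counts in every sample, 5 of the 10 genes were tested at 30 days and 4 were higher, beside 3064 of 12718 genes. At 7 days 6 were tested under this filter and 4 were higher, beside 905 of 12572 genes. In each of the 8 genes called in the main fit every ONH library lay above every ONP library of the same day. This was so for 9.26% of all genes at 30 days and 9.89% at 7 days. The median log2 fold change (log2FC) of the 6 pigment genes was 5.49 at 30 days and 6.22 at 7 days, and that of the 4 visual cycle and RPE genes was 3.85 and 3.05. The median over all genes was -0.01 and 0.07.

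**Figure D1:**
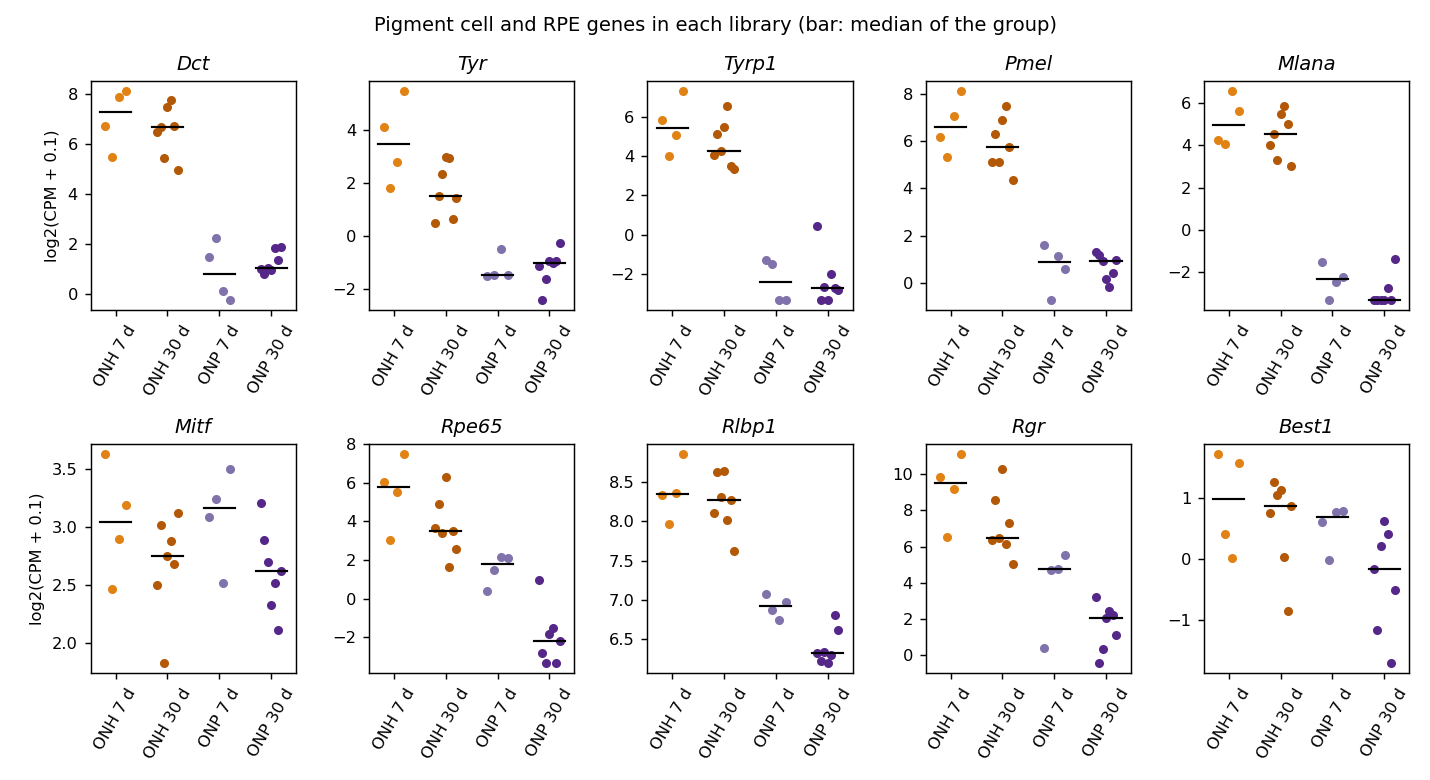
Level of each of the 10 genes in each library, as log2 of CPM plus 0.1, with a separate vertical scale for each gene. Points are libraries, 7 per region at 30 days and 4 per region at 7 days, and bars are group medians. Except for Mitf and Best1, all ONH points lie above the ONP points of the same day.

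Dct encodes dopachrome tautomerase, the enzyme next to Tyrp1 on the melanin pathway. At 30 days it ranged from 30.8 to 219 CPM in the ONH, with a median of 101 CPM, and from 1.63 to 3.64 CPM in the ONP, with a median of 1.95 CPM. At 7 days the ONH libraries 1, 3, 5 and 6 held 104, 44.2, 232 and 274 CPM, and the ONP libraries 1, 2, 5 and 6 held 2.70, 4.65, 0.985 and 0.750 CPM. Regions were far apart, yet the ONH libraries of a day differed among themselves 7.10-fold at 30 days and 6.19-fold at 7 days. The log2FC of ONH over ONP was 5.48 ± 0.43 (SE) at 30 days (edgeR, adjusted p = 2.81e-07) and 6.23 ± 0.76 at 7 days (adjusted p = 0.000605). By p-value Dct stood at place 47 of 15133 genes at 30 days.

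Tyr, the gene of the first and limiting enzyme, had the lowest ONH level per kb of the called pigment genes. In the ONH at 30 days it ranged from 1.30 to 7.78 CPM, with a median of 2.76 CPM, and in the ONP from 0.0857 to 0.719 CPM, with a median of 0.390 CPM. At 7 days the ONH libraries 1, 3, 5 and 6 held 17.4, 3.44, 6.89 and 44.2 CPM and no ONP library exceeded 0.615 CPM. The lowest ONH library stood above the highest ONP library at both times, but the ONP values rest on 2 to 18 counts. The log2FC was 3.44 ± 0.52 at 30 days (edgeR, adjusted p = 0.000103) and 5.67 ± 0.85 at 7 days (adjusted p = 0.00182).

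Tyrp1 and Mlana were at or near the counting limit in the ONP. Tyrp1 ranged from 10.2 to 95.3 CPM in the ONH at 30 days, with a median of 19.3 CPM, while 2 of 7 ONP libraries had no count and only library 1, with 29 counts, exceeded 3. At 7 days Tyrp1 read 58.2, 16.3, 33.1 and 157 CPM in ONH libraries 1, 3, 5 and 6 and at most 0.306 CPM in the ONP. Mlana ranged from 8.04 to 57.6 CPM in the ONH at 30 days, with a median of 23.0 CPM, and 5 of 7 ONP libraries had no count. The ONP total of 8 Mlana counts at 30 days held 7 counts from library 7. At 7 days Mlana read 19.2, 16.8, 93.6 and 49.0 CPM in the ONH and at most 0.245 CPM in the ONP. The log2FC at 30 days was 7.13 ± 0.87 for Tyrp1 (edgeR, adjusted p = 1.73e-05) and 8.87 ± 0.76 for Mlana (adjusted p = 6.07e-07), and at 7 days 9.12 ± 1.05 and 8.62 ± 0.82 (adjusted p = 0.00043 and 0.000224). With so few ONP counts the size of these values depends on the prior count of the fit and on single libraries. Without ONP library 1 the 30-day log2FC of Tyrp1 was 9.29, and without ONP library 7 that of Mlana was 10.93. By log2FC, Mlana stood at place 2 and Tyrp1 at place 12 of 15133 genes at 30 days.

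Pmel encodes the amyloid matrix protein of the melanosome. It ranged from 20.4 to 177 CPM in the ONH at 30 days, with a median of 54.2 CPM, and from 0.779 to 2.36 CPM in the ONP, with a median of 1.79 CPM. At 7 days it read 71.5, 39.8, 132 and 272 CPM in ONH libraries 1, 3, 5 and 6, and 2.94, 0.509, 2.09 and 1.42 CPM in ONP libraries 1, 2, 5 and 6. The groups did not overlap at either time. The log2FC was 5.50 ± 0.50 at 30 days (edgeR, adjusted p = 1.01e-06) and 6.22 ± 0.70 at 7 days (adjusted p = 0.000411). Of its 2292 exonic bases, 105 are shared with Dgka and 34 with Cdk2 on the opposite strand, and the library kit kept no strand, so reads from those bases cannot be told apart.

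Mitf, the regulator, did not follow the genes it is known to drive. Its level ranged from 3.46 to 8.63 CPM in the ONH and from 4.24 to 9.14 CPM in the ONP at 30 days, with medians of 6.66 and 6.07 CPM. At 7 days the 4 ONH libraries lay between 5.44 and 12.3 CPM and the 4 ONP libraries between 5.62 and 11.2 CPM. The regions overlapped almost completely at both times. The log2FC was 0.06 ± 0.22 at 30 days (edgeR, adjusted p = 0.841) and near 0 with an SE of 0.35 at 7 days (adjusted p = 0.997). The counts cover all starts of Mitf together, so that its isoforms were not separated.

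**Figure D2:**
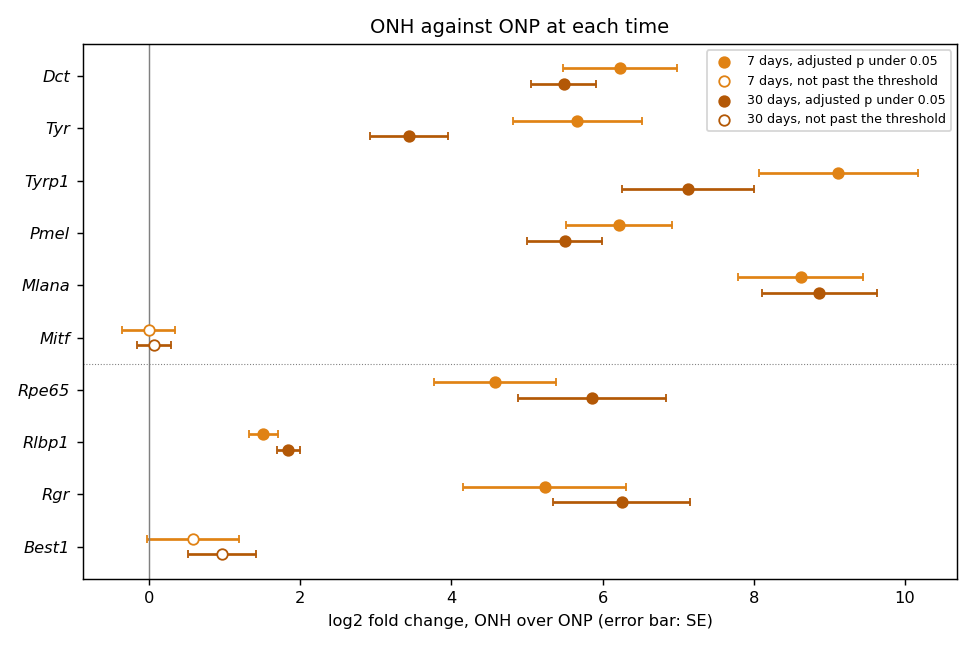
Log2 fold change of ONH over ONP for each gene at 7 days (4 against 4 libraries) and 30 days (7 against 7), with SE bars. Filled points pass an adjusted p of 0.05 and open points do not, and the dotted line separates pigment genes from visual cycle and RPE genes. Mitf sits at 0 while Mlana and Tyrp1 lie above 7 at both times.

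Among the visual cycle and RPE genes, Rpe65, the isomerase used as the defining gene of the RPE, was low in the ONP and variable in the ONH. At 30 days it ranged from 2.96 to 78.5 CPM in the ONH, with a median of 11.2 CPM, and from 0 to 1.88 CPM in the ONP, where the median was 0.120 CPM and 2 of 7 libraries had no count. At 7 days it read 66.2, 8.25, 46.6 and 180 CPM in ONH libraries 1, 3, 5 and 6 and 1.23, 2.74, 4.31 and 4.23 CPM in ONP libraries 1, 2, 5 and 6. No ONP library reached the lowest ONH library of its day, although the highest ONH library exceeded the lowest 26.5-fold at 30 days and 21.8-fold at 7 days. The log2FC was 5.86 ± 0.98 at 30 days (edgeR, adjusted p = 0.00024) and 4.58 ± 0.81 at 7 days (adjusted p = 0.00427). ONP library 1 held 43 of the 56 Rpe65 counts of the ONP at 30 days, and the same library held 29 of its 35 Tyrp1 counts. The log2FC of Rpe65 at 30 days was 7.66 without this library and 5.03 without ONH library 4.

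Rgr spread most widely. In the ONH at 30 days it ranged from 32.3 to 1241 CPM, with a median of 88.6 CPM, and in the ONP from 0.643 to 9.23 CPM, with a median of 3.97 CPM. At 7 days it read 919, 91.7, 583 and 2222 CPM in ONH libraries 1, 3, 5 and 6 and 1.23, 26.4, 27.4 and 47.0 CPM in ONP libraries 1, 2, 5 and 6. A single library, number 4, carried 55.5% of the Rgr counts of the ONH at 30 days. The log2FC was 6.25 ± 0.91 at 30 days (edgeR, adjusted p = 7.57e-05), or 5.15 without that library, and 5.23 ± 1.08 at 7 days (adjusted p = 0.00992).

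Rlbp1 was abundant in both regions and had the smallest spread. It ranged from 196 to 398 CPM in the ONH at 30 days, with a median of 309 CPM, and from 73.4 to 112 CPM in the ONP, with a median of 80.0 CPM. At 7 days it read 323, 249, 328 and 463 CPM in ONH libraries 1, 3, 5 and 6 and 135, 117, 107 and 125 CPM in ONP libraries 1, 2, 5 and 6. Its ONP level was below that of the ONH in every library but far above the counting limit. The log2FC was 1.84 ± 0.16 at 30 days (edgeR, adjusted p = 6.07e-07) and 1.51 ± 0.20 at 7 days (adjusted p = 0.000823).

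Best1 was at the low end in all groups. It ranged from 0.452 to 2.29 CPM in the ONH and from 0.207 to 1.43 CPM in the ONP at 30 days, with medians of 1.73 and 0.787 CPM. At 7 days the ONH libraries lay between 0.912 and 3.18 CPM and the ONP libraries between 0.891 and 1.61 CPM. The regions overlapped at both times. The log2FC was 0.97 ± 0.45 at 30 days (edgeR, adjusted p = 0.0932) and 0.58 ± 0.61 at 7 days (adjusted p = 0.567).

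Levels of different genes can be compared only per length, and CPM was divided by the exonic length of each gene in GENCODE M21. In the ONH at 30 days, Rlbp1 led with 104 ± 24.8 CPM per kb (SD, n = 7), followed by Rgr with 61.6 ± 90.6, Pmel with 32.1 ± 24.5, Mlana with 25.8 ± 17.5 and Dct with 18.5 ± 11.5. Next came Tyrp1 with 11.7 ± 10.7 CPM per kb and Rpe65 with 11.1 ± 13.7, and Mitf, Best1 and Tyr were last with 1.06 ± 0.276, 0.610 ± 0.257 and 0.573 ± 0.389. From Pmel to Rpe65 each gene differed from its neighbour by less than the SD of either, whereas Rgr and Pmel differed by more than the SD of Pmel and less than that of Rgr. In the ONP at 30 days the order changed behind Rlbp1, which had 28.9 ± 4.88 CPM per kb, as Mitf stood next with 1.01 ± 0.261 and Mlana last with 0.0444 ± 0.0986.

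The second question was how the genes differed between 7 and 30 days within a region. In the ONH no gene of 15668 passed the adjusted threshold of edgeR (0%), and so 0 of the 10 genes did. Unadjusted p-values fell under 0.05 for 2179 genes, and DESeq2 called 446. All 10 fitted log2FC lay below 0, as did 51.6% of all genes. Among the 10 genes, 2 had an unadjusted edgeR p under 0.05, Tyr at a log2FC of -2.16 ± 0.64 (adjusted p = 0.202) and Rpe65 at -1.83 ± 0.81 (adjusted p = 0.341). DESeq2 called Tyr lower at 30 days (log2FC -2.19 ± 0.64, adjusted p = 0.0347) and none of the other 9. Tyr averaged 4.07 CPM over the 7 libraries of day 30 (SD 2.76) and 18.0 CPM over the 4 of day 7 (SD 18.5), and library 6 carried 58.5% of the 7-day counts.

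Markers of other cells also had fitted log2FC below 0 in the ONH over this time, although edgeR called none of them. Over all genes 51.6% lay below 0, and 2179 of 15668 had an unadjusted p under 0.05. All 8 surface epithelium markers lay below 0 (median -3.26, 7 with an unadjusted p under 0.05), with summed levels of 7.03 to 38.9 CPM at 30 days and 12 to 332 CPM at 7 days. Of 8 fibroblast markers 7 lay below 0 (median -1.51, 7 with an unadjusted p under 0.05), with sums of 469 to 995 and 677 to 2030 CPM. All 8 endothelial markers did so too (median -1.86, 5 with an unadjusted p under 0.05), as did all 11 photoreceptor markers (median -1.78, 1 with an unadjusted p under 0.05). Their part in the lower fitted values of the 10 genes was not tested.

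In the ONP, 3 visual cycle genes were lower at 30 days, among 7 of the 10 genes that had enough counts to be tested. Called lower were 9.21% of all 15491 genes tested. Rpe65 averaged 0.353 ± 0.680 CPM over 7 libraries (SD) against 3.13 ± 1.46 CPM over the 4 libraries of day 7, with a log2FC of -3.14 ± 0.99 (edgeR, adjusted p = 0.0463). For Rgr the means were 3.84 ± 2.95 and 25.5 ± 18.7 CPM, with a log2FC of -2.76 ± 0.74 (edgeR, adjusted p = 0.025). For Rlbp1 they were 85.3 ± 14.4 and 121 ± 11.9 CPM, with a log2FC of -0.53 ± 0.12 (edgeR, adjusted p = 0.013).

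Groups overlapped in each of these 3 genes. ONP library 1 at 7 days, with 1.23 CPM, lay inside the 30-day range of both Rpe65 and Rgr. The highest 30-day level of Rlbp1, 112 CPM, exceeded the lowest at 7 days, 107 CPM. These calls were less firm than those between regions. In a single fit over all 4 groups none of the 3 passed (adjusted p = 0.052 for Rpe65, 0.0684 for Rgr and 0.082 for Rlbp1), and without ONP library 6 at 7 days none passed either (adjusted p = 0.113, 0.0926 and 0.0516). Without ONP library 2 at 7 days 1 of the 3 passed, Rlbp1. Rpe65 was the least firm. It passed in 1 of the 11 fits that each left out a library, that without ONP library 1 at 30 days (log2FC -4.91, adjusted p = 0.00318), and it did not pass with library size scaling (adjusted p = 0.0517) or without the filter on low counts (adjusted p = 0.0577). Rgr passed in 9 of the 11 and not by limma-voom (adjusted p = 0.0882), and Rlbp1 passed in 10 of the 11. The pigment genes tested, Dct, Pmel and Mitf, had log2FC of 0.08 ± 0.48, -0.15 ± 0.46 and -0.50 ± 0.24 and did not pass. Tyr, Tyrp1 and Mlana were not tested.

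Other cell markers moved in the ONP over the same time. By edgeR 9.21% of all genes were called lower at 30 days. Of 8 oligodendrocyte markers 7 were lower, with summed levels of 25100 to 82200 CPM at 30 days against 80300 to 105000 CPM at 7 days. Of 8 endothelial markers 4 were lower, with sums of 15.2 to 92.7 CPM against 106 to 140 CPM. Of 6 photoreceptor markers tested 2 were lower, with sums of 5.40 to 29.8 CPM against 11 to 81.9 CPM. Their part in the lower Rpe65, Rgr and Rlbp1 was not tested.

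**Figure D3:**
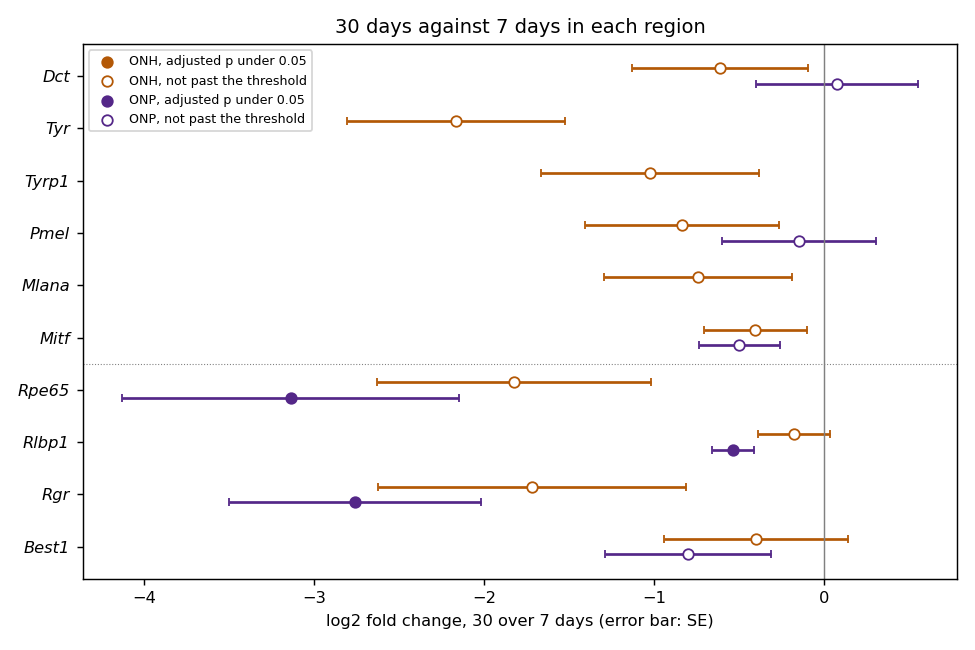
Log2 fold change of 30 over 7 days for each gene in the ONH and in the ONP (7 against 4 libraries each), with SE bars. Filled points pass an adjusted p of 0.05, and genes without an ONP point were too low there to be tested. The filled points are Rpe65, Rlbp1 and Rgr in the ONP.

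The difference between regions in the change over time was tested as an interaction over all 22 libraries. It was called for 0 of the 10 genes and for 0.543% of 16748 genes by edgeR, and for 0 of the 10 genes by DESeq2. The lowest p among the 10 was that of Tyr, unadjusted 0.0223 and adjusted 0.302, with an interaction log2FC of 2.23 ± 0.91, and no other of the 10 had an unadjusted p under 0.05. The lower visual cycle genes in the ONP were therefore not shown to differ from the same genes in the ONH. For Rpe65 the interaction was -1.30 ± 1.30 (edgeR, adjusted p = 0.747) and for Rgr -1.04 ± 1.29 (adjusted p = 0.817).

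The third question was whether the pigment genes and the visual cycle and RPE genes varied together across the 11 ONH libraries. Each value was taken as log2 CPM with the mean of its day removed, and 45 pairs of the 10 genes were compared by Pearson's r and Spearman's ρ, with two-sided permutation tests within days and adjustment over the 45. By r, 8 pairs passed an adjusted p of 0.05. Of the 15 pairs of pigment genes 5 passed, of the 6 pairs of visual cycle and RPE genes 3 passed, and of the 24 pairs across the 2 kinds none passed. The median r was 0.566, 0.695 and 0.481.

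Within the pigment genes the tightest pair was Dct and Pmel, with r = 0.940 (permutation p = 0.00012, adjusted 0.0054) and ρ = 0.955 (permutation p = 0.00011, adjusted 0.00495). Without the 2 libraries farthest from the median of Dct, r was 0.901. Dct and Mlana had r = 0.927 (permutation p = 0.00049, adjusted 0.00735) and ρ = 0.882 (permutation p = 0.00173, adjusted 0.0195), and r = 0.916 without 2 libraries. The remaining pairs that passed were Tyrp1 with Pmel (r = 0.885), Tyr with Tyrp1 (r = 0.867) and Pmel with Mlana (r = 0.865). Mitf passed with no gene, and its r with the other pigment genes ran from 0.175 with Mlana to 0.369 with Tyrp1.

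Within the visual cycle and RPE genes, Rpe65 and Rgr had r = 0.943 (permutation p = 0.00039, adjusted 0.00735) and ρ = 0.945 (permutation p = 0.00042, adjusted 0.00945), and r = 0.877 without 2 libraries. Rlbp1 and Rgr had r = 0.917 (permutation p = 0.00084, adjusted 0.00945), and Rpe65 and Rlbp1 had r = 0.861 (permutation p = 0.00317, adjusted 0.0178). Rlbp1 moved with them over a far smaller range, so that the ratio of Rlbp1 to Rpe65 in CPM varied 33.9-fold over the 11 libraries while that of Rgr to Rpe65 varied 4.24-fold. Best1 passed with none of the others.

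**Figure D4:**
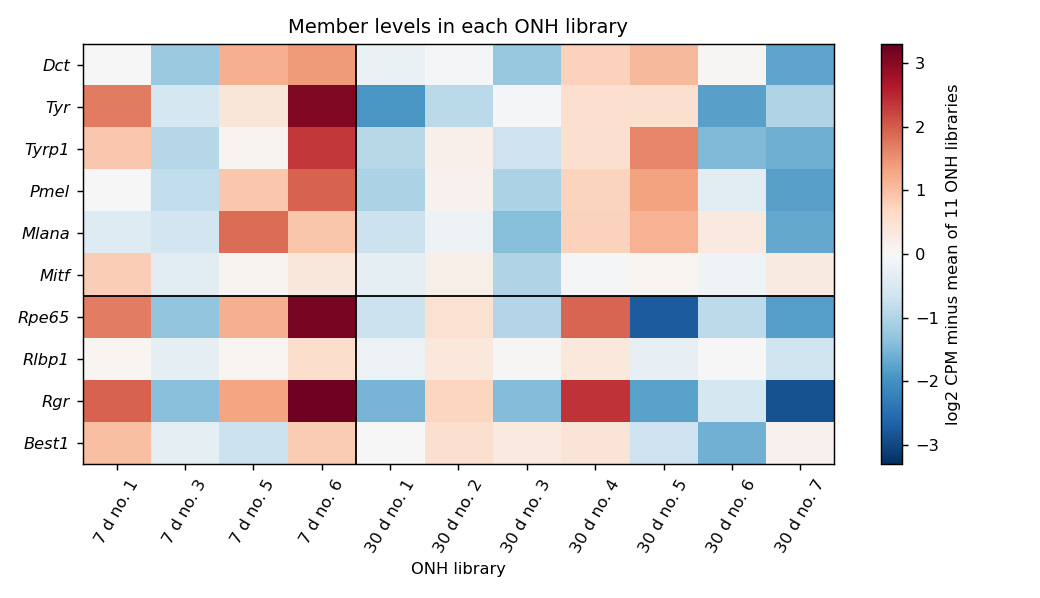
Level of each gene in each ONH library as log2 CPM minus its mean over the 11 libraries, with red above and blue below the mean. The vertical line separates 7 from 30 days and the horizontal line the pigment genes from the visual cycle and RPE genes. Library 5 at 30 days is red in Dct, Tyrp1, Pmel and Mlana and blue in Rpe65 and Rgr.

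One library decided the relation across the 2 kinds of genes. ONH library 5 at 30 days had the highest Dct (219 CPM), Tyrp1 (95.3 CPM), Pmel (177 CPM) and Mlana (57.6 CPM) of its group and the lowest Rpe65 (2.96 CPM). Its pigment genes lay 0.963 above the mean of the 11 ONH libraries, on average over the 6 genes in log2 CPM, and its visual cycle and RPE genes 1.37 below it, at -1.37. In each of the other 10 libraries the 2 averages differed by at most 0.721. Without this library 18 pairs passed, and 10 of the 24 pairs across the 2 kinds were among them, with a median r of 0.694. For Tyrp1 and Rpe65 r rose from 0.433 to 0.946, for Pmel and Rpe65 from 0.459 to 0.915, and for Dct and Rpe65 from 0.494 to 0.855. Leaving out any other library gave 5 to 9 pairs in all, the 5 without library 3 at 7 days, and none across the 2 kinds.

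The same contrast can be read from ratios within a library, which do not depend on its total. The ratio of Rgr to Dct in CPM was 0.322 in ONH library 5 at 30 days and 0.934, 3.85, 2.06, 7.03, 1.51 and 1.05 in libraries 1, 2, 3, 4, 6 and 7. At 7 days it was 8.84, 2.07, 2.51 and 8.12 in libraries 1, 3, 5 and 6. It thus spanned 27.5-fold over the 11 libraries, and that of Rpe65 to Dct 48.4-fold. Between pigment genes the span was narrower, at 2.57-fold for Pmel to Dct, 2.25-fold for Mlana to Dct and 5.33-fold for Tyrp1 to Dct, but 12.2-fold for Tyr to Dct.

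**Figure D5:**
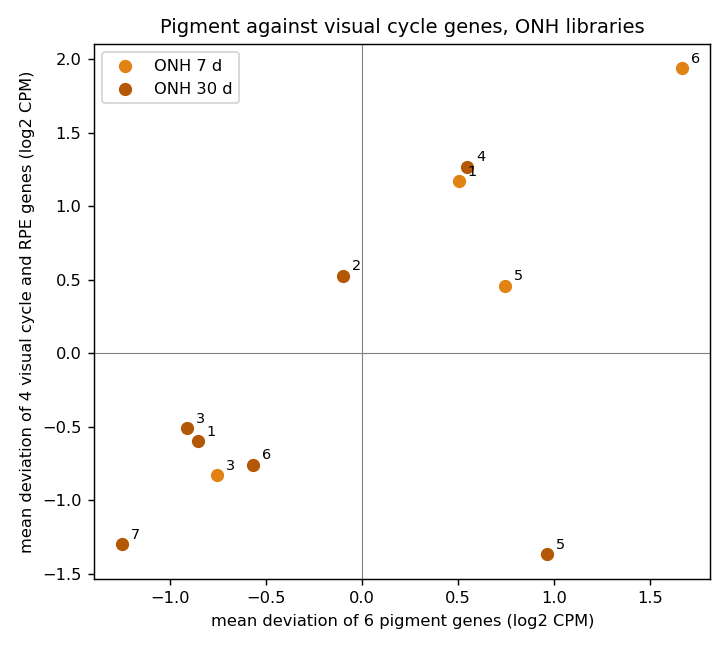
Mean deviation of the 6 pigment genes (horizontal) against that of the 4 visual cycle and RPE genes (vertical) in each ONH library, in log2 CPM from the mean of 11 libraries. Numbers name the libraries of each day. Library 5 at 30 days lies alone in the lower right, at 0.963 and -1.37.

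The 10 genes were also set against genes of other cells over the same libraries, 40 relations in all. Tyr with the collagen gene Col1a1 was the 1 relation that passed by r (r = 0.911, permutation p = 0.0008, adjusted 0.032), with ρ = 0.809 (permutation p = 0.00843, adjusted 0.14) and r = 0.878 without 2 libraries. With the myelin gene Mbp no r was above 0.559. The 4 ONH libraries with the highest Rgr included the 3 with the highest photoreceptor sums. In these, Rgr and the photoreceptor sum were 2222 and 3286 CPM in library 6 at 7 days, 1241 and 1533 CPM in library 4 at 30 days, and 583 and 1481 CPM in library 5 at 7 days. In the remaining one, library 1 at 7 days, they were 919 and 103 CPM. The part of photoreceptor RNA in these levels was not tested.

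The genes most like Dct and Rpe65 were found by Pearson's r over all 22 libraries, with the mean of each of the 4 groups removed, among 16748 genes. For Dct they were Gsta2 (r = 0.842), Pdgfrb (r = 0.787), Wipf3 (r = 0.761), Mecom (r = 0.742) and Syt4 (r = 0.741), and none was a pigment gene. The 22 libraries include the 11 of the ONP, where Tyrp1 and Mlana were at or near the counting limit. Over the 11 ONH libraries alone r of Dct was 0.940 with Pmel and 0.927 with Mlana. For Rpe65 the genes most alike over the 22 libraries were Rgr (r = 0.819), Slc16a8 (r = 0.819), Ttr (r = 0.812), Clic6 (r = 0.804) and Krt23 (r = 0.750). Slc16a8 encodes the lactate transporter of the RPE and Ttr the carrier of thyroxine and of the retinol binding protein. With group means kept, the most like Dct were Gsta2, Gsta1, Mlana, Tyrp1 and Slc24a5, at r of 0.982 to 0.965. Such r take in the difference between regions, and Dct, Mlana, Tyrp1 and Slc24a5 were all higher in the ONH. They therefore do not show that these genes varied together within a region. The r over 22 libraries are descriptions without a test, and the libraries share their batch of preparation.

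Further genes of melanosomes were listed by hand, 20 in all, and at 30 days 7 were higher in the ONH, 3 were lower, against 20.0% of all genes called lower, and 10 did not pass. Over all genes 21.8% were called higher. Their median log2FC was 0.21. The 4 with the lowest p were Tspan10, a tetraspanin (8.52 ± 0.83, adjusted p = 1.52e-06), the transporter Slc45a2 (5.61 ± 0.66, adjusted p = 1.17e-05), the ion exchanger Slc24a5 (4.84 ± 0.61, adjusted p = 2.08e-05) and the melanosome transporter Oca2 (5.87 ± 0.84, adjusted p = 5.61e-05), all by edgeR. Slc24a5 averaged 11.3 ± 7.92 CPM (SD, n = 7) in the ONH and 0.379 ± 0.347 CPM (SD, n = 7) in the ONP. The trafficking genes Hps5 and Ap3b1 (log2FC -0.47 and -0.33) and Gpnmb (-0.98) were the 3 that were lower in the ONH. At 7 days 5 of the 20 were higher in the ONH, against 6.34% of all genes, 1 was lower, against 6.81%, and 14 did not pass, with a median of 0.48.

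Regulators and receptors of the melanocyte lineage, 10 genes, gave no common direction. At 30 days 6 could be tested, and 3 were higher in the ONH, 1 was lower and 2 did not pass, against 21.8% and 20.0% of all genes called higher and lower. Kit, the receptor of stem cell factor (log2FC 1.12 ± 0.20, adjusted p = 0.000407), the endothelin receptor Ednrb (0.97 ± 0.25, adjusted p = 0.00595) and Lef1 (1.35 ± 0.49, adjusted p = 0.0349) were higher and Sox10 was lower (-1.54 ± 0.24, adjusted p = 0.000162), by edgeR. Ednrb is also an astrocyte gene and Sox10 also an oligodendrocyte gene. Pax3, a regulator of melanocyte precursors, was not tested and was listed at 0 in all ONP libraries, and averaged 0.674 ± 0.509 CPM (SD, n = 7) in the day 30 ONH. At 7 days 0 of 6 were higher by edgeR and 1 was lower, against 6.34% and 6.81% of all genes. Unadjusted p was under 0.05 for 2 of the 6 and for 4264 of all 14752 genes. Kit and Lef1 had fitted log2FC below 0 at 7 days (-0.97 ± 0.39 and -0.55 ± 0.47, edgeR, adjusted p = 0.13 and 0.477). Ednrb stayed above 0 (0.51 ± 0.28, edgeR, adjusted p = 0.249).

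Other genes of the visual cycle, 11 in all, mostly differed between regions in the direction of Rpe65, as the photoreceptor markers also did. At 30 days 8 were higher in the ONH, 1 was lower and 2 did not pass, with a median log2FC of 2.01, against 21.8% of all genes called higher and 20.0% called lower. At 7 days the counts were again 8, 1 and 2, with a median of 2.28, against 6.34% and 6.81%. The 4 with the lowest p were Ttr (6.60 ± 0.68, adjusted p = 3.67e-06), Lrat, which makes the ester that Rpe65 uses (6.07 ± 0.71, adjusted p = 1.18e-05), the opsin Rrh (4.93 ± 0.80, adjusted p = 0.000184) and the retinoid transporter Abca4 (2.57 ± 0.45, adjusted p = 0.000338), by edgeR. Lrat averaged 13.7 ± 14.2 CPM (SD, n = 7) in the ONH and 0.192 ± 0.112 CPM (SD, n = 7) in the ONP.

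Of 12 other RPE genes, 10 could be tested at 30 days, and 7 were higher in the ONH, none was lower and 3 did not pass, with a median log2FC of 3.001, against 21.8% of all genes called higher. The leading 4 were the channel Trpm3 (3.32 ± 0.27, adjusted p = 4.6e-07), the keratin Krt18 (5.32 ± 0.62, adjusted p = 1.12e-05), Slc16a8 (6.39 ± 0.81, adjusted p = 2.4e-05) and the channel Trpm1 (3.48 ± 0.45, adjusted p = 2.79e-05), by edgeR. At 7 days 7 of 11 were higher, against 6.34% of all genes, and 4 did not pass. Over 30 against 7 days in the ONH, edgeR called 0 genes of these 4 further lists, and 2 of 20, 0 of 7, 5 of 11 and 2 of 12 tested genes had an unadjusted p under 0.05. Over all genes 2179 of 15668 did. In the ONP, 1 of 14 melanosome genes tested was higher by edgeR, against 7.82% of all genes, and 1 was lower. Of the lineage genes 2 of 6 tested were lower and of the visual cycle genes 1 of 8, against 9.21% of all genes. No RPE gene was called by edgeR, with 1 of 10 at an unadjusted p under 0.05, beside 5043 of all 15491 genes.

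Markers of Müller glia bear on Rlbp1 and Rgr, which those cells also use. Of 6 such markers 4 were higher in the ONH at 30 days, against 21.8% of all genes, with summed levels of 1940 to 3140 CPM in the ONH and 998 to 1320 CPM in the ONP. Their part in the level of Rlbp1 and Rgr was not tested. Fibroblast markers summed to 469 to 995 CPM in the ONH and 166 to 735 CPM in the ONP at 30 days, with 1 of 8 higher and 1 lower, again beside 21.8% and 20.0% of all genes. The higher one was the collagen gene Col1a2, at 443.9 ± 103.5 CPM (SD, n = 7) in the ONH and 82.1 ± 46.1 CPM (SD, n = 7) in the ONP (log2FC 2.44 ± 0.30, edgeR, adjusted p = 2e-05), and the lower one Pdgfra (log2FC -1.12 ± 0.21, edgeR, adjusted p = 0.000605). Surface epithelium markers summed to 7.03 to 38.9 CPM in the ONH and 2.90 to 54.3 CPM in the ONP. Of these 1 of 4 tested was higher, against 21.8% of all genes.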

How the data were processed

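Reads were aligned with STAR 2.6.1d and quantified with Salmon 0.14.2 (build mm10), per the labels. Of the tables the authors deposited, one holds expected counts per gene, unnormalized and rounded, and the other log2 values made with the variance stabilizing transformation of DESeq2 1.34.0. The members and lists were chosen with earlier results of these data known.

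Counts were tested in R 4.3.3 with edgeR 4.0.16 (filterByExpr, TMM, quasi-likelihood test, Benjamini-Hochberg adjustment over all genes, threshold 0.05), on the 2 groups compared, or on all 4 for the interaction. Correlations used log2 CPM (prior count 2) and 100000 permutations (numpy 2.4.6). Scripts were tested on simulated data. Alternatives were DESeq2 1.42.0, limma-voom (limma 3.58.1), RLE and library size scaling, other filters, a fit over all groups, the replicate block, each library left out, and, chosen after seeing the data, leaving out each ONH library in the correlations.

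Named were all members, the 4 genes of each further list with the lowest p at 30 days (ONH vs ONP), genes listed after their values were seen where a count was 3 or fewer, and the 5 genes most like Dct and Rpe65. Some genes of these lists and correlations are not reported here. Positions and lengths are from GENCODE M21 (GRCm38), promoters from RefSeq. No 2 libraries were identical.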

Additional observations from a re-analysis of the deposited data

Results flagged for a closer look

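In groups of 4 to 10 libraries the highest and lowest values of each gene were compared with the rest by Dixon's ratio. For normally distributed values chance flags about 1 in 20 groups. The ratio was applied to CPM without a log, several ONP groups held values of 0, and the groups share libraries. This rate therefore does not apply here. Of the 40 groups 7 were flagged, each for a highest library. In the ONH at 30 days Tyrp1 stood out in library 5 with 95.3 CPM against 44.8 CPM in the next library. Rpe65 did so in library 4 of the same group with 78.5 CPM against 29.4 CPM, and Rgr in that library with 1241 CPM against 389 CPM. In the ONP at 30 days library 1 was far above the others in Tyrp1, with 1.27 CPM against 0.146 CPM, and in Rpe65, with 1.88 CPM against 0.243 CPM. The remaining 2 rest on few counts, Mlana in ONP library 7 at 30 days with 0.280 CPM (7 counts) and Tyr in ONP library 5 at 7 days with 0.615 CPM (15 counts).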

How the results depend on the processing

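The counts of called genes between regions were 8 of 10 at 7 days under every alternative but one, and 8 at 30 days, or 9 with Best1 added (limma-voom, and without ONH library 6). With at least 10 counts in every sample they were 4 at 30 days and 4 at 7 days, since the low ONP genes were then not tested. For ONH 30 vs 7 days DESeq2 called 1 gene. For ONP 30 vs 7 days the fit over all 4 groups called 0, and leaving out each library gave 0 to 3. Leaving out each ONH library gave 5 to 18 correlated pairs. The study took both regions from the same mice but ties no library number to a pool. At 30 days the deviations of same-numbered ONH and ONP libraries from their group means correlated at 0.0767 to 0.471, and in 3 of 7 pairs the own number correlated best. The replicate block by these numbers gave 8 of 10, with 6717 genes called in all against 6322. The planned block was not run for the other comparisons, since the numbers of the 7-day columns could not be matched to the replicate numbers of the labels.

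The calls of the 8 genes between regions held without each library, while their log2FC at 7 days ranged from 5.86 to 6.85 for Dct, 4.70 to 6.12 for Tyr, 8.21 to 9.92 for Tyrp1, 5.54 to 6.55 for Pmel, 7.95 to 9.15 for Mlana, 3.67 to 4.95 for Rpe65 and 4.38 to 5.70 for Rgr. The low ends were without ONH library 6, or 5 for Mlana.

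Changes of direction were met only in values that were not called. Mitf turned to 0.022 (limma-voom) and 0.13 (library size) at 7 days, and to 0.082 in the interaction (library size). With limma-voom Pmel became 0.079 for ONP 30 vs 7 days. With each library left out, the range spanned 0 for Mitf between regions (-0.033 to 0.19 at 30 days, -0.25 to 0.15 at 7 days), for Rlbp1 in the ONH over time (-0.30 to 0.010), for Dct and Pmel in the ONP over time (-0.19 to 0.70 and -0.44 to 0.25) and, in the interaction, for Tyrp1 (-0.16 to 2.84), Mlana (-2.30 to 0.31), Mitf (-0.29 to 0.11) and Rgr (-1.87 to 0.092). The cause was not tested. Tyr, Tyrp1 and Mlana in the ONP were too low for a test over time at this depth.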
